A study of Mus musculus with 8 samples.

Results

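The genes described here encode the mitochondrial enzymes of fatty acid oxidation and of the citric acid cycle, with the pyruvate dehydrogenase complex, its kinases and the uncoupling protein Ucp3. They were taken from a list of 33 genes, and a gene entered where the array held a probe set annotated to it alone. This held for 32 of the 33, with 64 probe sets among the 45101 of the array. Cpt1b, the muscle form of carnitine palmitoyltransferase, had no such probe set and was not analysed here. All 32 genes had a probe set bright enough to test, among 12362 tested genes, and 54 of the 64 probe sets passed that filter. The 10 left out were dim second probe sets of genes that another probe set measured. Each gene is given by its brightest tested probe set. No member was lost to the filter.

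Fatty acids enter mitochondria as carnitine esters and are shortened there in repeated rounds of dehydrogenation, hydration, a second dehydrogenation and thiolysis. Each round yields acetyl-CoA, which also comes from pyruvate through pyruvate dehydrogenase and is burnt in the citric acid cycle. Heart, skeletal muscle and brown fat are rich in these enzymes, and a dissected ankle holds muscle and fat beside synovium, bone, cartilage and skin.

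Whole ankle joints of mice aged 5 months were profiled, with 1 array a mouse by the labels and 8 arrays in all. In 3 arrays the mice carried a human TNF transgene and were labelled functionally null for sphingosine kinase 1 (Sphk1), the enzyme that makes sphingosine 1-phosphate. In 3 more the mice carried the same transgene with normal Sphk1 (hTNF), and 2 arrays came from wild-type mice. Human TNF overexpression in mice is a standard arthritis model, and the design asks what loss of Sphk1 does in them. The promoter that drives the transgene, the strain background and the nature of the Sphk1 allele are not given in the sources used here, and every Sphk1-null array also carries the transgene.

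The values are log2 summaries of probe set brightness, with array medians of 6.84 to 6.89. The Sphk1 probe set read 9.94 to 10.22 on the arrays labelled Sphk1 null, 8.28 to 8.65 on the hTNF arrays and 7.16 to 7.25 on the wild-type arrays. It was thus highest where the label says null, and whether it lies in the part altered by the allele is not given, so it does not check that label. On 3 arrays, the first labelled Sphk1 null, the first hTNF and the second wild type, both Xist and the Y-linked Eif2s3y were well above their lowest level, a pair that RNA of 1 male or 1 female mouse does not normally show. Kdm5d, also Y-linked, read 7.22, 4.27 and 4.24 on those 3 arrays, and 3.68 to 4.21 on the 3 arrays without Eif2s3y signal. Whether the 3 arrays with both signals hold RNA of several mice was not tested. The members' medians and some other results are also given without those 3 arrays, but not the counts of calls against wild type. The labels do not say whether mice of one group were from different litters or were prepared apart, and the p-values therefore reflect variation among these 8 arrays, some of which may be technical.

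In hTNF ankles, 29 of the 32 genes fell and 1 rose against wild-type ankles, at an adjusted p under 0.05 in limma over all 24115 tested probe sets. Of all 12362 tested genes, 19.6% fell and 16.5% rose. The median difference of the members was −0.77 log2, a 1.70-fold lower signal, with quartiles of −0.83 and −0.60. Over all tested genes the median difference was −0.02. Without the 3 arrays that had Xist together with Y-linked signal, the members' median was −0.78 log2, with a single wild-type array left. The gene that rose was Cpt1a, and the short-chain dehydrogenase Acads and the cycle subunit Dlst were not called. Falls of at least 2-fold were found for the kinases Pdk2 and Pdk4 alone, and 6.02% of all genes fell that far. Counting signs alone, 31 members had a negative difference, as did 52% of all genes. The hTNF and wild-type arrays did not overlap for 30 members with hTNF lower and for 1 with hTNF higher, against 35.1% and 28.7% of all genes. In a whole joint, fewer cells of a type and less RNA per cell cannot be told apart.

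**Figure D1:**
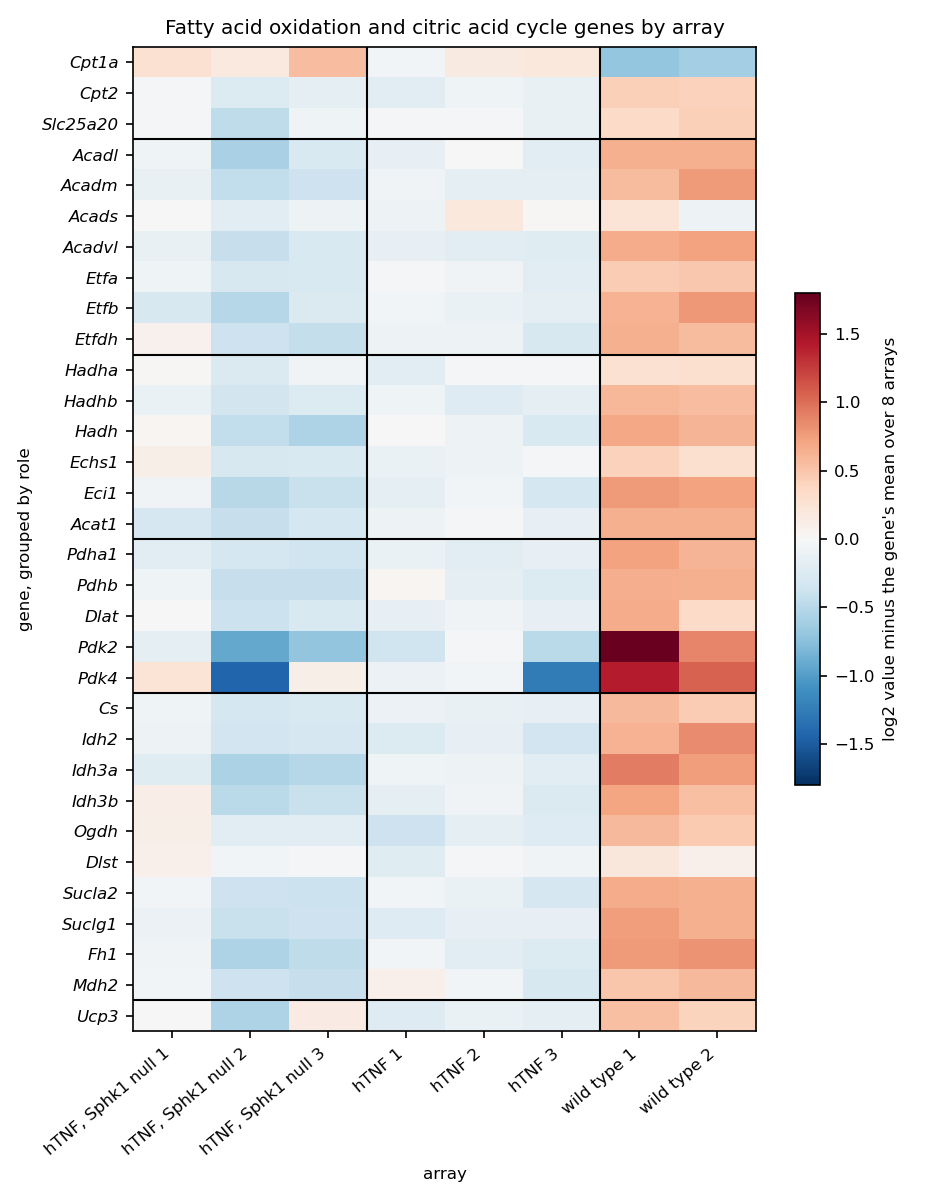
Each row is a gene, ordered by role, and each column an array, with the arrays labelled Sphk1 null left, hTNF in the middle and wild type right. Colour gives the log2 value minus the mean of that gene over the 8 arrays (red higher, blue lower). Most rows are red on both wild-type arrays and pale or blue on the 6 transgenic arrays, and the Cpt1a row runs the other way.

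Markers of several tissues moved in the same comparison, in which 19.6% of all tested genes fell and 16.5% rose. Of 29 tested skeletal muscle markers, 27 fell in hTNF ankles, with a median difference of −1.08 log2. Their mean level was 11.81 to 12.50 on the arrays labelled Sphk1 null, 12.30 to 12.63 on hTNF arrays and 13.67 to 13.73 on wild-type arrays. Of 14 adipocyte markers, 13 fell, with a median of −1.80, and mean levels of 8.85 to 9.32 on arrays labelled Sphk1 null, 9.32 to 9.56 on hTNF arrays and 11.3 on both wild-type arrays. Of 14 macrophage markers, 12 rose, with a median of 1.93, and mean levels of 11.24 to 11.51 on arrays labelled Sphk1 null, 10.84 to 11.30 on hTNF arrays and 8.86 to 8.90 on wild-type arrays. The lowest value of a muscle marker on any array was 7.36 log2, for Trim63 on the second array labelled Sphk1 null, above the median of the whole table (6.87). Of 7 cartilage markers, 5 fell, with a median of −1.35, and of 8 synovial fibroblast markers, 6 rose and 1 fell, with a median of 0.79. Other lists varied within a group. Of 11 keratinocyte markers, 0 were called, with mean levels from 7.13 to 11.64 within the hTNF arrays. Of 8 neutrophil markers, 1 rose and 0 fell, with mean levels of 8.25 and 11.42 on the 2 wild-type arrays. The part of these shifts in the falls of the oxidation and cycle genes was not tested.

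Promoter sequences of 250 bases before to 50 after the start site were read from RefSeq (GRCm38.p6) for 30 of the members, with 36 promoters in all; Acat1 and Idh3a are named only. The motifs were searched on both strands. A direct repeat of AGGTCA with 1 base between, which PPAR receptors bind, was found in 0 of 30 members (0.0201% of 9946 tested genes with a promoter), and TNAAGGTCA, which estrogen-related receptors bind, in 0 (0.885%). After the values were seen, AGGTCA alone, which lies within both, was found in 8 of 30 members (26.7%) and 14.9% of tested genes, GGGCGG in 21 (70%) and 66.9%, and TATAAA in 0 and 9.76%. The median GC content was 60.7% in member promoters and 60.3% in those of tested genes. The Hadha and Hadhb windows, on opposite strands, share 228 bases. Shown are Cpt1a, the only gene that rose (chr19:3323051-3323350, + strand), Pdk4, the largest fall (chr6:5496229-5496528, − strand), Acadvl, the largest fall among the acyl-CoA dehydrogenases (chr11:70015379-70015678, − strand), and Ucp3, which has 2 AGGTCA matches (chr7:100472741-100473040, + strand). Capitals mark AGGTCA or GGGCGG, or the reverse complement of either; the 4 were chosen after the values were seen.
Cpt1a: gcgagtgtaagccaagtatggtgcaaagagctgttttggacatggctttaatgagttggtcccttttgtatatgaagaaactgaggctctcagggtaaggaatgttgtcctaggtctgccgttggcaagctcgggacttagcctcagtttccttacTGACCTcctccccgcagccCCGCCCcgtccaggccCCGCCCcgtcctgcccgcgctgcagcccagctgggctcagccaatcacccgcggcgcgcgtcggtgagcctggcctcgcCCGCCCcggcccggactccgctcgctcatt
Pdk4: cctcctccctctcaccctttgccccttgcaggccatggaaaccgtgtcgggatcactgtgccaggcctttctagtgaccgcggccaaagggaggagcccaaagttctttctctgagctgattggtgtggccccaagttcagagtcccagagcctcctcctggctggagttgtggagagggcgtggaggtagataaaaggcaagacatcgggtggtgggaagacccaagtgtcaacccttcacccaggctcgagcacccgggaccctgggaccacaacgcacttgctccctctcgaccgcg
Acadvl: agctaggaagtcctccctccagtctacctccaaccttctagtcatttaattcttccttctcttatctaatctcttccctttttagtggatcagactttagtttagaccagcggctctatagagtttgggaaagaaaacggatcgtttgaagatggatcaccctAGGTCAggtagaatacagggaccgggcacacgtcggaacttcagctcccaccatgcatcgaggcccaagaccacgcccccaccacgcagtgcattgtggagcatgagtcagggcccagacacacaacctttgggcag
Ucp3: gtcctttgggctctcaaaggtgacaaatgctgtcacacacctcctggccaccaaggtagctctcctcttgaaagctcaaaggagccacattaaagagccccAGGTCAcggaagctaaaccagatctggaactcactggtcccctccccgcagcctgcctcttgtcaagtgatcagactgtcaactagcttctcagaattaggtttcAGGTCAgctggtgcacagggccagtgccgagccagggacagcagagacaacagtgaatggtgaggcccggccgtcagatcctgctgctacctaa
Cpt1a holds 1 AGGTCA and 3 GGGCGG matches, Acadvl 1 AGGTCA match, and Pdk4 none of either. A match is a run of letters, not a bound site, and the share of members with AGGTCA is given without a test.

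Entry of fatty acids into mitochondria was the role in which the genes moved in opposite directions, with Cpt1a higher and Cpt2 and Slc25a20 lower. Cpt1a, which attaches long-chain fatty acids to carnitine at the outer membrane and is the form known from liver, read 10.75, 10.65 and 11.03 log2 on the arrays labelled Sphk1 null, 10.43, 10.64 and 10.66 on the hTNF arrays, and 9.78 and 9.87 on the wild-type arrays. All 6 transgenic arrays lay above both wild-type arrays. The difference was 0.75 ± 0.13 log2 (SE) for hTNF against wild type, a 1.68-fold rise (limma adjusted p = 0.00226), and it was higher than that of 91% of all genes.

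Slc25a20, the carrier that takes acylcarnitines across the inner membrane, read 9.59, 9.17 and 9.54 on the arrays labelled Sphk1 null, 9.59, 9.59 and 9.49 on hTNF arrays, and 9.96 and 10.05 on wild-type arrays. The wild-type arrays lay above the other 6, and the hTNF difference was −0.45 ± 0.14 log2 (limma adjusted p = 0.0322). That call was lost without any 1 of the 3 hTNF or 2 wild-type arrays, at −0.49 to −0.40 log2 (limma adjusted p up to 0.154). A second Slc25a20 probe set, dimmer at 8.43 to 9.38 log2, differed by −0.67 ± 0.14 log2 for hTNF and was called (limma adjusted p = 0.00526). Cpt2, the inner-membrane enzyme that turns the carnitine ester back into acyl-CoA, read 9.67, 9.46 and 9.54 on the arrays labelled Sphk1 null, 9.51, 9.62 and 9.57 on hTNF arrays, and 10.13 and 10.12 on wild-type arrays. Its wild-type arrays were again the highest, and the hTNF difference was −0.56 ± 0.10 log2 (limma adjusted p = 0.00306).

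**Figure D2:**
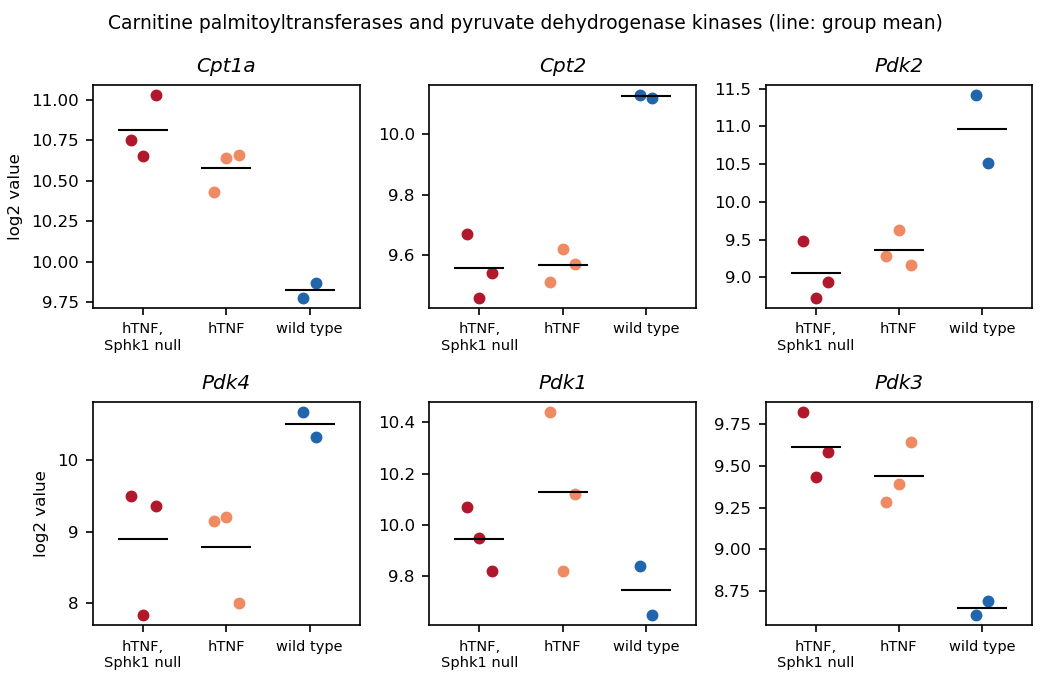
Log2 values of Cpt1a, Cpt2 and 4 pyruvate dehydrogenase kinases; each point is an array and each line a group mean, with the arrays labelled Sphk1 null left, hTNF in the middle and wild type right, and a separate vertical scale for each gene. Cpt1a and Pdk3 are higher on all 6 transgenic arrays than on wild-type arrays, and Cpt2, Pdk2 and Pdk4 are lower.

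The first oxidation step is run by the acyl-CoA dehydrogenases, whose electrons pass through the electron transfer flavoprotein (Etfa, Etfb) and its dehydrogenase Etfdh to the respiratory chain. Of these 7 genes, 6 fell in hTNF ankles, with a median difference of −0.76 log2. The very-long-chain enzyme Acadvl read 10.62, 10.34 and 10.48 on the arrays labelled Sphk1 null, 10.61, 10.55 and 10.53 on hTNF arrays, and 11.42 and 11.48 on wild-type arrays. Its transgenic arrays all lay below both wild-type arrays, and the hTNF difference was −0.89 ± 0.10 log2, 1.85-fold lower (limma adjusted p = 0.000297).

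Acadl and Acadm, the long-chain and medium-chain enzymes, fell by 0.75 and 0.80 log2, and Etfa, Etfb and Etfdh fell by 0.56, 0.81 and 0.76 log2. The short-chain enzyme Acads read 9.23, 9.02 and 9.14 on the arrays labelled Sphk1 null, 9.14, 9.42 and 9.25 on hTNF arrays, and 9.48 and 9.14 on wild-type arrays. Its groups overlapped, and the hTNF difference was −0.04 ± 0.14 log2 (limma adjusted p = 0.868). Acads was thus the only dehydrogenase of the 4 without a call.

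All 6 genes of the later steps of the cycle of oxidation fell in hTNF ankles, with a median difference of −0.73 log2. Eci1, the isomerase that lets unsaturated fatty acids enter the cycle, read 9.87, 9.43 and 9.53 on the arrays labelled Sphk1 null, 9.75, 9.88 and 9.61 on hTNF arrays, and 10.69 and 10.65 on wild-type arrays. No transgenic array reached the wild-type level, and the hTNF difference was −0.92 ± 0.14 log2, 1.90-fold lower (limma adjusted p = 0.00127). Hadha, the hydratase and dehydrogenase subunit of the trifunctional protein, read 10.27, 9.99 and 10.19 on the arrays labelled Sphk1 null, 10.05, 10.23 and 10.23 on hTNF arrays, and 10.53 and 10.55 on wild-type arrays. Both transgenic groups lay below wild type and overlapped each other, and the hTNF difference of −0.37 ± 0.12 log2 was the smallest of the 6 (limma adjusted p = 0.0343). The Hadha call was lost under 9 of 18 alternatives, among them without any 1 of the hTNF or wild-type arrays or the third array labelled Sphk1 null, at −0.40 to −0.31 log2 (limma adjusted p up to 0.134). Echs1, the short-chain hydratase, fell by 0.43 log2 and lost its call without any 1 of the hTNF or wild-type arrays, at −0.49 to −0.36 log2 (limma adjusted p up to 0.2). Hadhb, the thiolase subunit, fell by 0.74 log2, and the short-chain hydroxyacyl dehydrogenase Hadh and the thiolase Acat1 fell by 0.77 and 0.73.

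Pyruvate dehydrogenase links glycolysis to the cycle, and its kinases switch it off by phosphorylation. All 5 of these genes fell in hTNF ankles, with a median difference of −0.82 log2. The E1 subunits Pdha1 and Pdhb fell by 0.82 and 0.78 log2. Dlat, the E2 subunit, had the smallest change of the 5, reading 9.65, 9.26 and 9.36 on the arrays labelled Sphk1 null, 9.50, 9.58 and 9.49 on hTNF arrays, and 10.31 and 9.98 on wild-type arrays. The wild-type arrays were apart from each other but above the rest, and the hTNF difference was −0.62 ± 0.15 log2 (limma adjusted p = 0.00966). Without the first wild-type array it was −0.46 and not called (limma adjusted p = 0.105).

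The kinases Pdk2 and Pdk4 had the largest falls of all 32 genes and also the largest spread. Pdk4, a kinase known to be induced by fasting, read 9.51, 7.84 and 9.37 on the arrays labelled Sphk1 null, 9.16, 9.21 and 8.01 on hTNF arrays, and 10.68 and 10.33 on wild-type arrays. One array of each transgenic group was more than 1 log2 below its fellows, and no transgenic array reached wild type. The hTNF difference was −1.71 ± 0.50 log2, 3.27-fold lower (limma adjusted p = 0.0271). It was not called without the third hTNF array (−1.32), the first wild-type array (−1.54), the second wild-type array (−1.89) or the 3 arrays that had Xist together with Y-linked signal (−2.07). Pdk2 read 9.48, 8.73 and 8.94 on the arrays labelled Sphk1 null, 9.28, 9.63 and 9.16 on hTNF arrays, and 11.42 and 10.52 on wild-type arrays. Its 2 wild-type arrays differed by nearly 1 log2 and both lay above the rest, with an hTNF difference of −1.61 ± 0.29 log2, 3.06-fold lower (limma adjusted p = 0.00241).

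Of the pyruvate dehydrogenase kinases outside the list, Pdk3 rose by 0.79 ± 0.15 log2 in hTNF ankles (limma adjusted p = 0.00329), and Pdk1 differed by 0.38 ± 0.17 log2 (limma adjusted p = 0.125). Within each array, Pdk2 minus Pdk1 was −1.16 to −0.19 log2 on hTNF arrays and 0.87 to 1.58 on wild-type arrays. The mean difference of hTNF minus wild type was −1.99 log2, with an exact two-sided permutation p of 0.1, which is the smallest that 3 against 2 arrays allow (adjusted p = 0.267 over 4 pairs of genes). The other 3 pairs, Pdk4 and Pdk2, Sucla2 and Suclg2, and Acadl and Acadvl, gave differences of −0.10, −0.34 and 0.13 log2, with exact permutation p-values of 0.9, 0.2 and 0.2.

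In the citric acid cycle, 9 of 10 genes fell in hTNF ankles, with a median difference of −0.80 log2. Idh2, the NADP-linked isocitrate dehydrogenase, had the largest fall, with 10.06, 9.81 and 9.86 on the arrays labelled Sphk1 null, 9.91, 10.01 and 9.81 on hTNF arrays, and 10.79 and 11.01 on wild-type arrays. The transgenic arrays all lay below wild type, and the hTNF difference was −0.99 ± 0.12 log2, 1.99-fold lower (limma adjusted p = 0.000369). Idh3a, the catalytic subunit of the NAD-linked enzyme, fell by 0.96 log2, and fumarase Fh1 by 0.95. The citrate synthase Cs and the malate dehydrogenase Mdh2 had the smallest called falls, 0.65 and 0.62 log2. The succinyl-CoA ligase subunits Suclg1 and Sucla2 fell by 0.87 and 0.81.

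Dlst, the E2 subunit of the alpha-ketoglutarate dehydrogenase complex, read 11.15, 11.01 and 11.02 on the arrays labelled Sphk1 null, 10.83, 11.02 and 10.99 on hTNF arrays, and 11.25 and 11.15 on wild-type arrays. The hTNF arrays lay below wild type, and the arrays labelled Sphk1 null touched it. The hTNF difference was −0.25 ± 0.10 log2 and was not called (limma adjusted p = 0.0793). Ogdh, the E1 subunit of the same complex, fell by 0.79 log2.

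Ucp3, a carrier of the inner mitochondrial membrane known mainly from muscle, read 7.57, 7.02 and 7.72 on the arrays labelled Sphk1 null, 7.34, 7.46 and 7.40 on hTNF arrays, and 8.11 and 7.97 on wild-type arrays. Both wild-type arrays lay above the other 6, and the hTNF difference was −0.64 ± 0.19 log2 (limma adjusted p = 0.0305). The call was lost without any 1 of the hTNF or wild-type arrays, at −0.71 to −0.57 log2. A second Ucp3 probe set, at 6.82 to 7.41 log2, was near the table median of 6.87. It differed by −0.33 log2 for hTNF against wild type and was not called (limma adjusted p = 0.142).

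**Figure D3:**
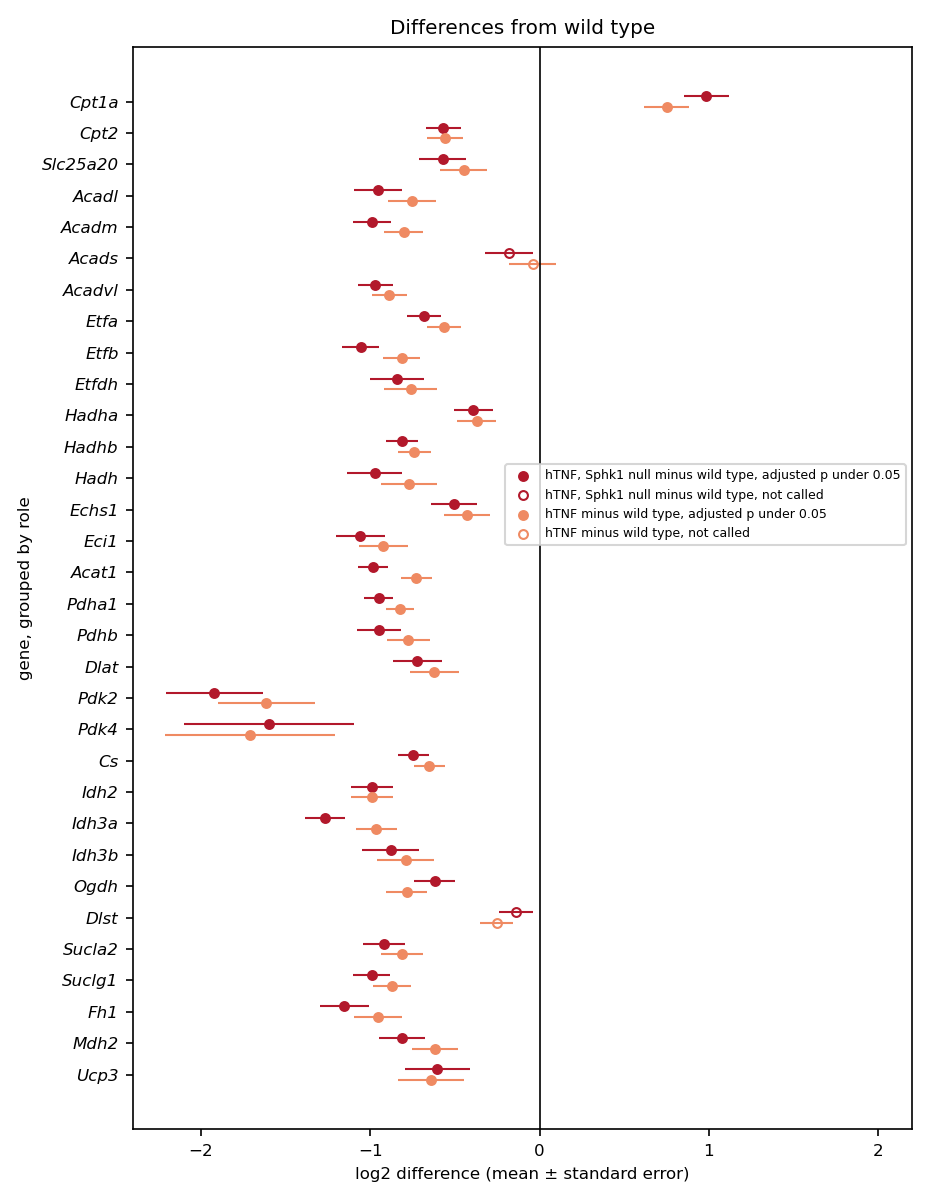
For each gene, ordered by role, the points give the log2 difference from wild type with its standard error, for the arrays labelled Sphk1 null and for hTNF, and open points were not called. Cpt1a is the only gene to the right of 0, and Pdk2 and Pdk4 lie farthest to the left with the widest bars.

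Of the 32 genes, 18 had 1 tested probe set and 14 had several. Among the 22 probe sets not used to represent a gene, 13 were lower in hTNF ankles at an adjusted p under 0.05, compared with 16.4% of all tested probe sets, and 5 had the opposite sign to the probe set used. The largest differences of opposite sign were in Hadhb, Idh3b and Ogdh, each with 1 such probe set that differed by 0.21, 0.22 and 0.20 log2 and was not called. Dlst held the others, at 0.07 and 0.08 log2, also not called. The second Idh3b probe set read 10.32, 10.16 and 10.11 on the arrays labelled Sphk1 null, 10.18, 10.24 and 10.13 on hTNF arrays, and 9.85 and 10.08 on wild-type arrays. The probe set used for Idh3b read 11.29, 10.69 and 10.78 on the arrays labelled Sphk1 null, 11.01, 11.11 and 10.91 on hTNF arrays, and 11.89 and 11.71 on wild-type arrays. The transgenic arrays thus lay below wild type with the probe set used and, by a smaller step, above it with the second. The Hadhb probe set used read 11.06, 10.85 and 10.93 on the arrays labelled Sphk1 null, 11.10, 10.95 and 11.01 on hTNF arrays, and 11.78 and 11.74 on wild-type arrays. The further one read 7.36, 6.96 and 7.08 on the arrays labelled Sphk1 null, 7.59, 7.66 and 7.19 on hTNF arrays, and 7.21 and 7.33 on wild-type arrays. Wild type was thus highest with the first Hadhb probe set and overlapped both transgenic groups with the other. The Ogdh probe set used read 10.86, 10.56 and 10.55 on the arrays labelled Sphk1 null, 10.38, 10.58 and 10.51 on hTNF arrays, and 11.33 and 11.22 on wild-type arrays. Its further probe set read 7.59, 7.26 and 7.30 on the arrays labelled Sphk1 null, 7.47, 7.48 and 7.63 on hTNF arrays, and 7.42 and 7.24 on wild-type arrays. With that one the hTNF arrays lay above wild type and the arrays labelled Sphk1 null overlapped it. With all probe sets of a gene averaged, Hadhb, Idh3b and Ogdh were no longer called, at differences of −0.37, −0.29 and −0.29 log2 (limma adjusted p = 0.094, 0.117 and 0.1). The Idh3b probe set used was also not called without the first wild-type array, at −0.70 log2 (limma adjusted p = 0.0596). For Idh3a, 4 probe sets all had a negative difference, from −1.46 to −0.29 log2, the widest range of a member.

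**Figure D4:**
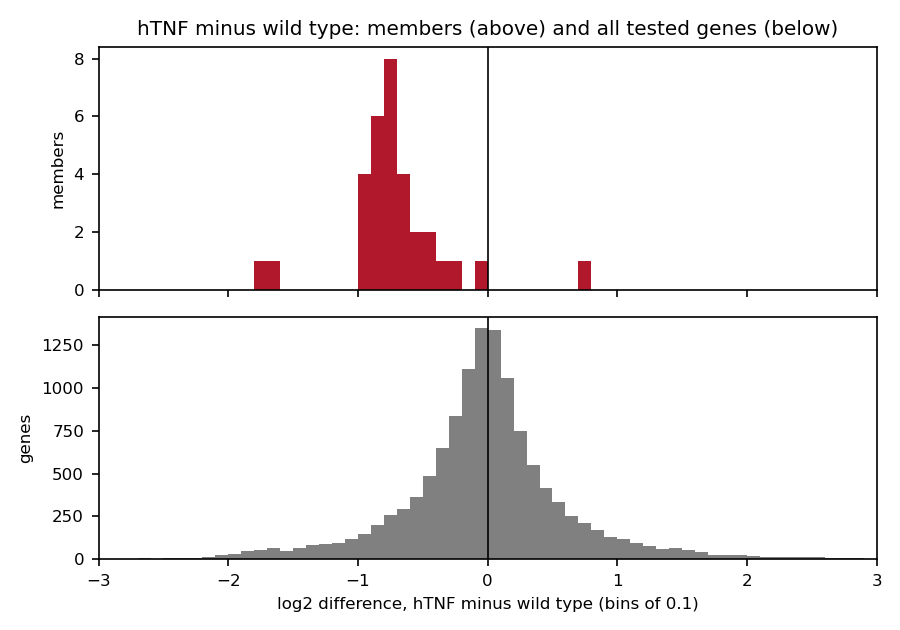
The upper panel counts the 32 members and the lower panel all 12362 tested genes by their log2 difference, hTNF minus wild type, in bins of 0.1; the axis ends at −3 and 3, beyond which lie 32 genes. The members gather left of 0 between −0.4 and −1, with Cpt1a right of 0 and Pdk2 and Pdk4 far left, while all genes centre on 0.

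Genes around the listed enzymes were counted in the same comparison, from lists drawn up with earlier results of these data known. Over all tested genes, 19.6% fell and 16.5% rose. Of 22 tested genes of oxidative phosphorylation, 21 fell in hTNF ankles, with a median of −0.73 log2. The largest falls were in the muscle forms Cox8b (−2.0 ± 0.36), Cox7a1 (−1.83 ± 0.35) and Cox6a2 (−1.81 ± 0.20), while Cox6a1 differed by 0.16 log2 and was not called. Of 29 genes of mitochondrial import, translation and upkeep, 8 fell (19.6% of all genes) and 0 rose (16.5%), with a median of −0.24. Vdac3, an outer-membrane channel, fell most (−0.62 ± 0.10). Of 25 further fatty acid genes, 12 fell and Acsl5 rose, with a median of −0.30. Fabp3, the fatty acid carrier of heart and muscle, read 9.11, 8.17 and 8.76 on the arrays labelled Sphk1 null, 8.96, 9.33 and 8.64 on hTNF arrays, and 11.28 and 11.89 on wild-type arrays, a difference of −2.61 ± 0.30 log2 for hTNF (limma adjusted p = 0.000259).

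Of 24 further genes of pyruvate and the cycle, 16 fell (19.6% of all genes) and 4 rose (16.5%), with a median of −0.65 log2. Pcx, which makes oxaloacetate from pyruvate, fell by 1.15 log2, and the malic enzymes Me3 and Me1 fell by 1.60 and 1.10, while Me2 rose by 0.68. Of 20 transcriptional regulators of mitochondrial and lipid genes, 12 fell and 0 rose, with a median of −0.53. Esrrg, an estrogen-related receptor, fell by 2.19 log2, and Ppargc1a, a coactivator of mitochondrial genes, fell by 1.73. Pparg, the receptor that drives adipocyte differentiation, fell by 1.90, and Prkaa2, a catalytic subunit of AMP-activated kinase, also by 1.90. Esrra differed by 0.24 ± 0.14 log2 and was not called (limma adjusted p = 0.246). Pparg is also among the adipocyte markers and Cox8b among the brown fat markers.

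**Figure D5:**
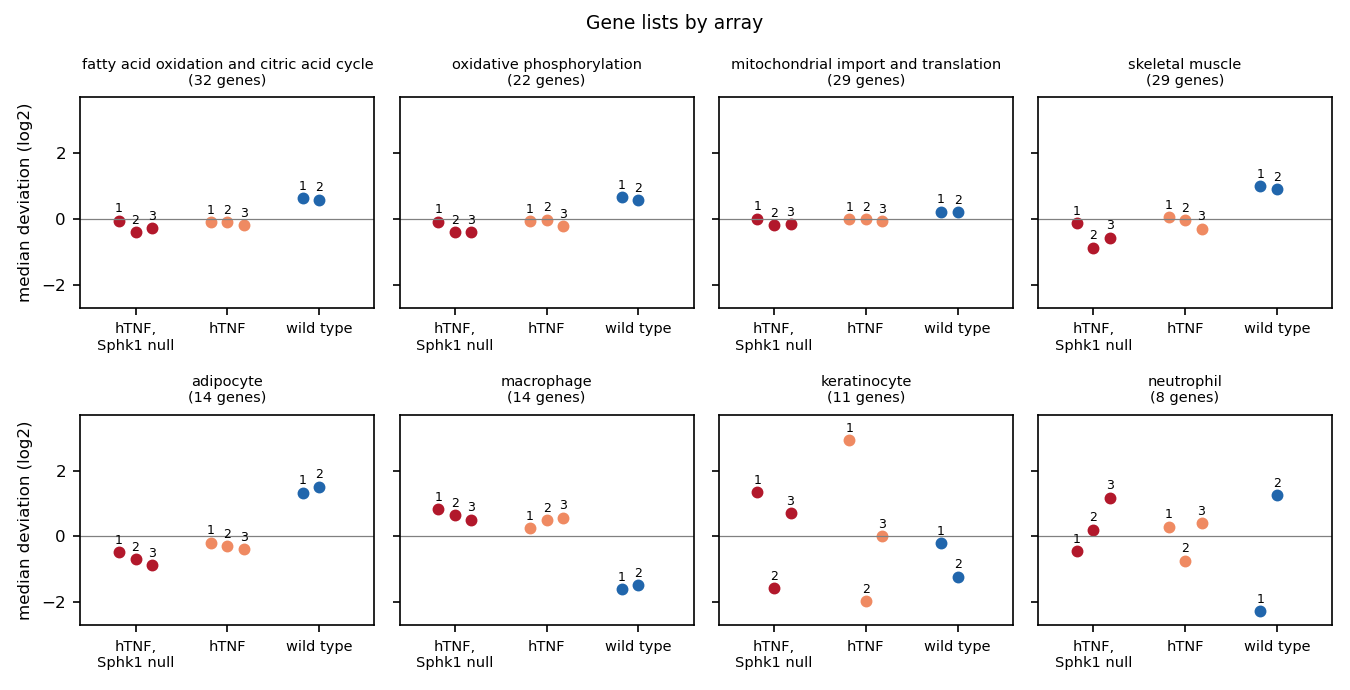
Each panel is a gene list and each point an array (replicate number above it), giving the median over the list of log2 values minus each gene's mean over the 8 arrays; groups run from the arrays labelled Sphk1 null to hTNF to wild type. The oxidation and cycle genes lie at 0.59 and 0.63 on wild-type arrays and −0.39 to −0.05 on transgenic arrays. Oxidative phosphorylation, mitochondrial import and translation, skeletal muscle and adipocyte panels also have wild type highest, and macrophage markers run the other way. Keratinocyte and neutrophil markers vary within groups, and their groups overlap.

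Set against hTNF, the arrays labelled Sphk1 null had 0 of the 32 genes called in either direction by limma, where 0% of all genes were lower and 0.0162% higher. The smallest adjusted p was 0.605 and the median difference −0.11 log2, with a median standard error of 0.11. A negative sign was seen for 27 of 32 members and for 55.1% of all genes. At an unadjusted limma p under 0.05, 3 members were lower (3.88% of all genes) and 0 higher (2.39%). The arrays of the 2 groups did not overlap for 3 members with the arrays labelled Sphk1 null lower (4.91% of all genes) and for 0 with them higher (5.1%).

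Those 3 were Acat1, Idh3a and Etfb. Acat1 read 10.41, 10.30 and 10.39 on the arrays labelled Sphk1 null and 10.62, 10.69 and 10.56 on hTNF arrays, a difference of −0.26 ± 0.08 log2 with a 95% interval of −0.44 to −0.07 (limma adjusted p = 0.605). Idh3a read 11.08, 10.73 and 10.78 on the arrays labelled Sphk1 null and 11.21, 11.20 and 11.09 on hTNF arrays, and Etfb read 10.63, 10.40 and 10.66 on the arrays labelled Sphk1 null and 10.87, 10.80 and 10.75 on hTNF arrays. Their differences were −0.30 and −0.24 log2 (limma adjusted p = 0.612 and 0.648). For each of the 3, the highest array labelled Sphk1 null lay just below the lowest hTNF array. With the further probe sets of Acat1 (−0.23 and −0.21 log2) and Idh3a (−0.35, −0.29 and 0.20 log2), the 2 groups overlapped. Cpt1a differed by 0.23 log2 with an interval of −0.03 to 0.50, and Pdk4 by 0.11 with an interval of −0.90 to 1.13.

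That unadjusted count changed with single arrays and with the choice of probe set. It was 17 of 32 without the first array labelled Sphk1 null, where 14.7% of all genes passed in that direction, and 14 without the 3 arrays that had Xist together with Y-linked signal, where 12.4% passed. It was 1 without the second array labelled Sphk1 null (1.38% of all genes) or the first hTNF array (1.42%), and 0 without the second hTNF array (2.7%). With all probe sets of a gene averaged it was 1 (3.95%). The adjusted count was 0 under each alternative. Among the 6 transgenic arrays, the first array labelled Sphk1 null was the highest for 16 members and the second the lowest for 24. Their members lay at −0.05 and −0.39 log2 of the mean over all arrays (median), and their mean muscle marker levels were 12.50 and 11.81. Between the 2 transgenic groups, 19 of 29 muscle markers were lower at an unadjusted limma p under 0.05 (3.88% of all genes) and 0 at an adjusted p, with a median difference of −0.40 log2. The myosin Myh4 went the other way, at 1.41 ± 0.32 log2 (limma adjusted p = 0.453), with 11.44, 12.33 and 12.90 on the arrays labelled Sphk1 null and 10.84, 11.11 and 10.48 on hTNF arrays. Of 14 adipocyte markers, 5 were lower and 0 higher at an unadjusted limma p under 0.05, with a median difference of −0.43 log2. The part of the muscle or adipocyte markers in the members' values was not tested.

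Against wild type, the arrays labelled Sphk1 null gave counts like those of hTNF, with which they share the wild-type arrays. Of the 32 genes 29 fell (23.8% of all genes) and 1 rose (19.1%), and the median difference was −0.90 log2. The arrays did not overlap for 29 members lower and 1 higher, against 32.5% and 28.3% of all genes. Falls of at least 2-fold were found for 6 genes, namely Pdk2, Pdk4, Idh3a, Fh1, Eci1 and Etfb, and for 8.11% of all genes. Pdk2 fell by 1.92 ± 0.29 log2 (limma adjusted p = 0.00071) and Cpt1a rose by 0.99 ± 0.13 (limma adjusted p = 0.000381). Calls of Echs1, Hadha, Pdk4, Slc25a20 and Ucp3 were lost here too without single arrays, with Pdk4 at −1.06 log2 without the second array labelled Sphk1 null and −1.42 without the first wild-type array (limma adjusted p = 0.0511 and 0.16). Acads (−0.18 ± 0.14 log2) and Dlst (−0.14 ± 0.10) were again not called.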

How the data were processed

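Ankle joint RNA was hybridised to 8 Affymetrix arrays, each labelled as 1 mouse. The authors deposited log2 expression values for 45101 probe sets; Affymetrix Expression Console, RMA and MAS5 are named per the submitters' processing notes, and the program behind the values and its version are not given in the sources used here. Such summaries set the arrays to a common scale, so a difference in total RNA cannot be seen, and the number of arrays limits the precision.

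Gene names came from the annotation of the platform, in which 34945 probe sets had 1 gene, 932 several and 9160 none. Control probe sets and those not above the table median (6.87) on at least 2 of 8 arrays were left out, which left 24115. The 3 group means were estimated jointly from the 8 arrays in limma 3.58.1 under R 4.3.3, using an intensity trend and 5 residual degrees of freedom. P-values were adjusted by Benjamini-Hochberg across every tested probe set, and a call needs an adjusted p under 0.05. A gene is its brightest tested single-gene probe set, and ± gives the standard error of a difference. The fit was tested on simulated data.

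Values on every array are given, within each role, for the members with the largest and smallest change in hTNF against wild type. The same holds for members called against the direction of their role. The 3 with the smallest p between the transgenic groups are given on the arrays of those groups. For Hadhb, Idh3b and Ogdh, the probe set used and the one of opposite sign are given on every array. Further probe sets of Dlst and Idh3a are given as differences only. Cpt2, Pdk2 and Fabp3 were added after their values were seen. Of related genes, those with the largest called changes of a list are named, and Pdk1, Cox6a1, Esrra and Myh4 were added. The members and lists were chosen with earlier results of these data known. A Cpt1b minus Cpt1a difference was not run, since Cpt1b is not analysed here. Within-array differences between genes were tested by exact permutation.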

Additional observations from a re-analysis of the deposited data

How the results depend on the processing

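Under 18 alternatives (dim filter, choice of probe set, offset, quantile normalization, variance trend, groups fitted alone, replicate block, and arrays left out) the counts of called members stayed within 1.5 times the main counts and no member's called change reversed. With each array left out in turn, 22 to 29 members fell in hTNF against wild type, 25 to 29 in the arrays labelled Sphk1 null against wild type, and 0 between the transgenic groups; the medians ranged from −0.79 to −0.71, from −1 to −0.8 and from −0.21 to −0.05 log2. In hTNF against wild type, 9 members lost their call under some alternative and 21 kept it under every one. The call was lost under 9 of the 18 alternatives for Hadha, 7 for Echs1 and for Slc25a20, 6 for Ucp3 and 4 for Pdk4. It was lost under 2 for Idh3b and under 1 each for Dlat, Hadhb and Ogdh. Against wild type, 7 members of the arrays labelled Sphk1 null lost a call. Without the 3 arrays that had Xist together with Y-linked signal, a single wild-type array was left, with Eif2s3y at 8.86 and Xist at 7.45. Both arrays labelled Sphk1 null that were left had Eif2s3y at 3.46 and Xist at 12.89 and 13.1. Of the hTNF arrays left, the second had Eif2s3y at 8.75 and the third at 3.81. Sex-linked signal thus differed along with genotype there, and its part was not tested. The members' median was then −0.78 log2 for hTNF and −1 for the arrays labelled Sphk1 null against wild type. Between the transgenic groups it was −0.2. Why the arrays left out had both signals was not tested. The count at an unadjusted p between the transgenic groups was added after seeing the data.

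With the replicate number as a block, 26 members fell in hTNF and 28 in the arrays labelled Sphk1 null against wild type, and 0 differed between them. After group means were removed, same-numbered arrays of different groups correlated at −0.17 to 0.27 over 7 pairs. Differently numbered ones correlated at −0.49 to 0.37 over 14 pairs. The ranges overlap, and so few arrays a group cannot settle whether the numbers pair the arrays. With 2 or 3 arrays in a group, the median standard error of a member was 0.127 log2 for hTNF against wild type and 0.114 between the transgenic groups, so small differences can go uncalled.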
